A study of Mus musculus with 4 samples.

Results

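Mecom, Hlf, Meis1, Gata2, Runx1, Tal1, Lmo2, Erg, Fli1 and Gfi1b encode transcription factors that together hold haematopoietic stem cells (HSCs) in their state. These 10 genes were taken by name from the 23906 gene symbols listed for each library, and all 10 had a value above 0 in every library. Their RNA was measured in LSK-SLAM cells, sorted as carrying Sca1, cKit and CD150 and lacking lineage markers and CD48, a population in which HSCs are concentrated. The cells came from BRE-GFP transgenic mice on a C57BL/6 background, in which a BMP-responsive element drives GFP, so that GFP+ cells are those with active BMP signalling when they are sorted. Fetal liver (FL) at embryonic day 14 gave 1 GFP+ and 1 GFP- library, and adult bone marrow (BM) gave the same pair. Fetuses came from heterozygous transgenic fathers and wild-type mothers. The paper describes both tissues as BRE-GFP, but whether each fetus was genotyped is not given in the sources used here. The groups differed in tissue, stage and reporter state. The age of the adult mice used for RNA and the number of animals behind a library are not given in the sources used here. Since no group was replicated, a difference between single libraries has no replicate check. The comparisons ask whether BMP-activated and non-activated HSCs, in either tissue, differ in this set of factors.

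Several of these proteins act as assemblies. TAL1, a basic helix-loop-helix factor, is joined to GATA factors through LMO2 and the adaptor LDB1, and ERG, FLI1 and RUNX1 bind at many of the same regulatory elements. MECOM, a zinc finger factor also known as EVI1, and HLF, a bZIP factor, mark long-term stem cells. MEIS1 is a homeodomain cofactor of HOX proteins, and GFI1B is a zinc finger repressor that is needed in stem cells and in the erythroid and megakaryocytic lineages. Fewer cells of a type and less RNA per cell cannot be told apart in such bulk samples.

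Promoter windows of 250 bases before the start, from RefSeq on build GRCm38.p6, were available for 8 of the 10 genes in 14 windows. They are shown here for Meis1 and Gata2, the pair of genes with the smallest distance between their profiles over the libraries, for Hlf, which had the largest fold between tissues in GFP+ cells, and for Gfi1b, which ran the other way between tissues. Where a gene had several windows, the farthest upstream is printed, and capitals mark a match to any motif searched, on either strand. The Meis1 window is chr11:19018970-19019219, the Gata2 window chr6:88193641-88193890, the Hlf window chr11:90390918-90391167 and the Gfi1b window chr2:28621983-28622232. Gata2 lies on the plus strand and the other 3 genes lie on the minus strand, and each window is written 5′ to 3′ on the strand of its gene.
Meis1: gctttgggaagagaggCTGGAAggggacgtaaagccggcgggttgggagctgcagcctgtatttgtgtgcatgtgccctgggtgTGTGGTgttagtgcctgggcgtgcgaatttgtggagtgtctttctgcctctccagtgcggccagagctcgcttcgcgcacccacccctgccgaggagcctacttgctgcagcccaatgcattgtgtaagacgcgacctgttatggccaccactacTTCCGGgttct
Gata2: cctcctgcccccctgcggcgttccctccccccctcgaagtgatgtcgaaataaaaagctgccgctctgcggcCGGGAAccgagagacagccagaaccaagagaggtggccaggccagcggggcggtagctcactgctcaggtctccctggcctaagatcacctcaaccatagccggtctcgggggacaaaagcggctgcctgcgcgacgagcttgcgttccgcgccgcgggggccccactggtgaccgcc
Hlf: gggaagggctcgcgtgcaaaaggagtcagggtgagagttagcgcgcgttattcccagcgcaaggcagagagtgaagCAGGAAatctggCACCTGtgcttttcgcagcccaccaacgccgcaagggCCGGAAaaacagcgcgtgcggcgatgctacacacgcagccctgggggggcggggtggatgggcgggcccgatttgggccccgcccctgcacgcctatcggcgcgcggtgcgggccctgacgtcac
Gfi1b: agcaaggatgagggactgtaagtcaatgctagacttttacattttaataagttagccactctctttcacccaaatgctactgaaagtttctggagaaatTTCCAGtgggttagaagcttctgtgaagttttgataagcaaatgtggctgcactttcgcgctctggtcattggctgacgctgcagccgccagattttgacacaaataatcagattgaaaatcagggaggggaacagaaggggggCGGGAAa

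The ETS motif CNGGAA, the class that ERG and FLI1 bind, matched in 11 of the 14 windows, against 54.2% of the 32841 promoter windows of all genes. The Meis1 window held 2 such matches, the Gata2 window 1, the Hlf window 2 and the Gfi1b window 2. The GATA motif AGATAA matched in 2 of the 14 windows (Tal1 and Erg), against 9.99% of all windows. The E-box CAGNTG matched in 4 windows against 44.8%, the RUNX motif TGTGGT in 1 window against 14.05%, and the MEIS motif TGACAG in 2 windows against 15.9%. The PAR bZIP motif TTANGTAA, the class that HLF binds, matched in 0 of the 14 windows and in 2.06% of all windows. No matches overlapped in the 4 windows printed. These are matches of letters and say nothing on binding.

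The tissue labels were checked against marker genes. The summed FPKM (a read density scaled for transcript length and library size) of 8 fetal genes, led by Igf2bp1 and Igf2bp2, was 473 and 127 in the FL GFP+ and GFP- libraries and 7.14 and 6.37 in those of the BM. The embryonic globin genes Hbb-y and Hba-x were listed at 0 in all 4 libraries. Hbb-bh1, another embryonic globin gene, had 0.177, 4.15, 0.243 and 0 in FL GFP+, FL GFP-, BM GFP+ and BM GFP- cells. The GFP label has no such check, and the direction of every GFP+/GFP- difference rests on it. Between 12372 and 17345 symbols had a value above 0 in a library, and the files give FPKM without read counts, so that counting error could not be computed from them. The BM GFP+ library stood apart. Its 100 highest genes held 40.3% of the FPKM total, against 28.2% to 31.6% in the others. The sum of 10 granulocyte genes, led by S100a8 and S100a9, was 62373 in BM GFP+ against 17495 in BM GFP- and 587 and 310 in FL GFP+ and GFP- cells, and all 10 were above an FPKM of 1 in each BM library. The corresponding sums were 20424, 2843, 992 and 908 for 8 erythroid genes, of which 8 were above 1 in BM GFP+ and 7 in each other library. They were 3493, 955, 96.3 and 43.5 for 8 B cell genes, of which all 8 were above 1 in both BM libraries. They were 732, 230, 0 and 4.52 for 7 mast cell and basophil genes, 266, 75.7, 57.9 and 43.0 for 6 macrophage genes, and 416, 585, 289 and 299 for 8 megakaryocyte genes. The sum of 9 genes of the sort and of long-term stem cells was lowest in BM GFP+ cells, at 386 against 608 in BM GFP- cells and 761 and 812 in the FL libraries, and 8 of the 9 were more than 2-fold lower in BM GFP+ than in BM GFP- cells. The exception was Ly6a, which encodes Sca1, at 286 against 146. Procr, a surface marker of long-term HSCs, was listed at 0 in BM GFP+ cells and lay between 60.8 and 113 in the others. Cd48, whose protein the sort selects against, had 51.4, 17.4, 267 and 126 in FL GFP+, FL GFP-, BM GFP+ and BM GFP- cells. Hbb-bh1, Ly6a, Procr and Cd48 were chosen after their values were seen.

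Levels of the 10 factor genes spanned from 4.83 (Hlf, BM GFP+) to 412 (Lmo2, BM GFP-). Their summed FPKM was 832, 672, 354 and 767 in FL GFP+, FL GFP-, BM GFP+ and BM GFP- cells, and their median 43.7, 42.3, 22.9 and 41.1. Of the 10 genes, 7 had their lowest level in BM GFP+ cells and 6 their highest in FL GFP+ cells, as the plot of levels by library shows. Lmo2, the LIM-domain bridge of the TAL1 complex, was the highest of the set in every library and made up 31.7%, 35.4%, 34.7% and 53.7% of the sum in FL GFP+, FL GFP-, BM GFP+ and BM GFP- cells. The lowest of the set was Runx1 in FL GFP+ cells and Hlf in the other 3 libraries. Among the genes detected in a library, the factors ranked from the 56.6 to the 96.9 percentile in FL GFP+, the 67.1 to the 97.9 for FL GFP-, the 37.1 to the 91.3 for BM GFP+ and the 64.4 to the 98.5 among BM GFP- cells. These are gene-level values and do not separate the long and short products of Mecom, for which the annotation lists 18 transcripts, or those of Runx1, for which it lists 6.

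**Figure D1:**
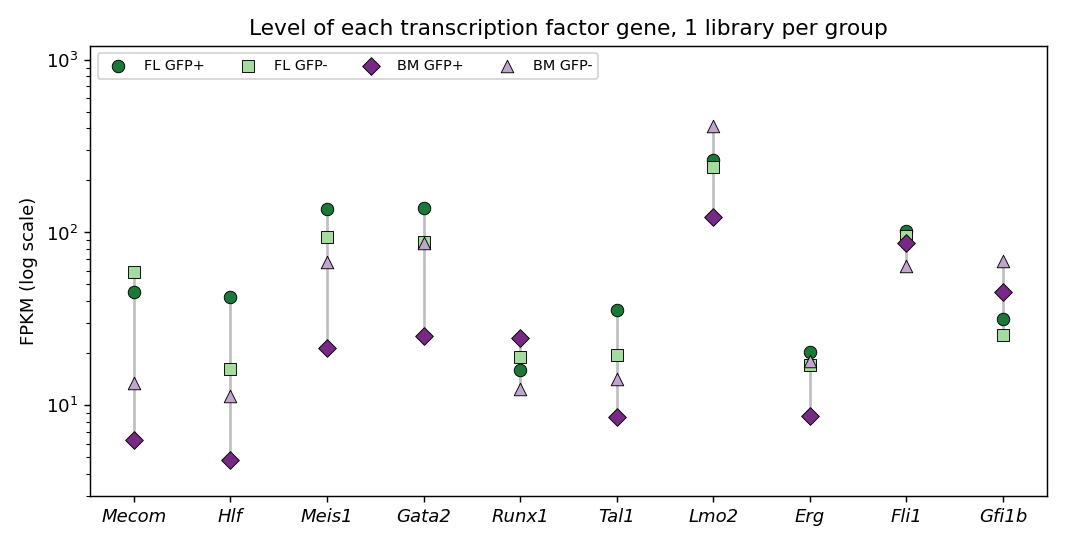
FPKM (log axis) of the 10 factor genes, with 1 point for each of the 4 libraries and a grey line over their range; there are no replicates and so no error bars. The BM GFP+ point is the lowest for 7 genes, and Runx1, Fli1 and Gfi1b are the exceptions.

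In BM, 6 of the 10 genes had more than 2-fold lower FPKM in GFP+ than in GFP- cells and 0 had more than 2-fold higher. Over all genes detected in either library, 36.7% were past 2-fold in the first direction and 18.0% in the second. Among genes that reached an FPKM of 1 in either library, 19.6% were more than 2-fold lower in GFP+ cells. The median log2 ratio of FPKM + 1 was −0.99 for the 10 genes and 0.12 for the 12385 genes that reached 1. The mature-cell sums given above, other than the megakaryocyte sum, were higher in the same BM GFP+ library than in BM GFP- cells. The megakaryocyte sum was lower, at 416 against 585, as was the stem-cell sum. The part of these sums in the ratios was not tested.

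Gata2, a zinc finger factor that stem cells need to survive and expand, stood at 25.04 among BM GFP+ and 86.4 among BM GFP- cells, which is 3.45-fold lower in GFP+ cells. Lmo2 was 3.35-fold lower, with 123 and 412. Meis1 was 3.12-fold lower, with 21.5 and 67.0. These 3 genes had the largest BM differences of the set.

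Hlf had 4.83 against 11.3 in BM GFP- cells, a 2.35-fold difference. Mecom had 6.29 and 13.5, a 2.15-fold difference. Erg, an ETS factor required for stem-cell maintenance, had 8.62 and 18.1, a 2.10-fold difference. With a pseudocount of 1 in the fold, Mecom and Erg no longer passed 2-fold and the count became 4.

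Tal1 and Gfi1b were lower in BM GFP+ cells by less than 2-fold. Tal1 stood at 8.51 against 14.2 in GFP- cells, and Gfi1b at 45.4 against 68.4. With all libraries scaled to the same FPKM total, both passed 2-fold and the count became 8. This scaling also moved the median log2 ratio of the 13609 genes that reached an FPKM of 1 in any library, from 0.03 to −0.28. The share of all genes past 2-fold was not computed on that scale. Runx1, the DNA-binding partner of CBFB, was the gene with the highest ratio, at 24.4 against 12.4 in GFP- cells, 1.97-fold higher. Fli1, the ETS relative of Erg, had 86.6 and 64.1, 1.35-fold higher, and the scaling to equal totals turned this direction.

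In FL, 1 of the 10 genes, Hlf, was more than 2-fold higher in GFP+ cells and 0 were more than 2-fold lower. The shares over all detected genes were 16.5% and 38.4%, and 17.9% of genes that reached an FPKM of 1 were more than 2-fold higher. Hlf stood at 42.3 against 16.2 in FL GFP- cells, 2.61-fold higher. Tal1 had 35.4 and 19.6, 1.81-fold higher. Gata2 had 138 and 87.6, 1.58-fold higher, and Meis1 had 137 and 94.3, 1.46-fold higher. Thus, 4 of the genes with lower FPKM in the GFP+ cells of BM had higher FPKM in the GFP+ cells of FL by the largest folds of the set.

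The remaining FL ratios were small. Gfi1b stood at 31.7 against 25.6 in FL GFP- cells, Erg at 20.5 against 17.2, Lmo2 at 263 against 238, and Fli1 at 102 against 95.4. Scaling to equal totals turned the directions of Erg, Lmo2 and Fli1, and scaling to equal upper quartiles those of Lmo2 and Fli1. Mecom was 1.31-fold lower in GFP+ cells, with 45.1 against 59.0, and Runx1 1.18-fold lower, with 16.0 against 19.0. The median log2 ratio of FPKM + 1 was 0.27 for the 10 genes and 0.05 for the 12134 genes that reached an FPKM of 1. Hepatocyte genes also summed higher in the FL GFP+ library, at 452 for 8 genes against 69.0 in FL GFP- cells, and their part in these ratios was not tested.

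**Figure D2:**
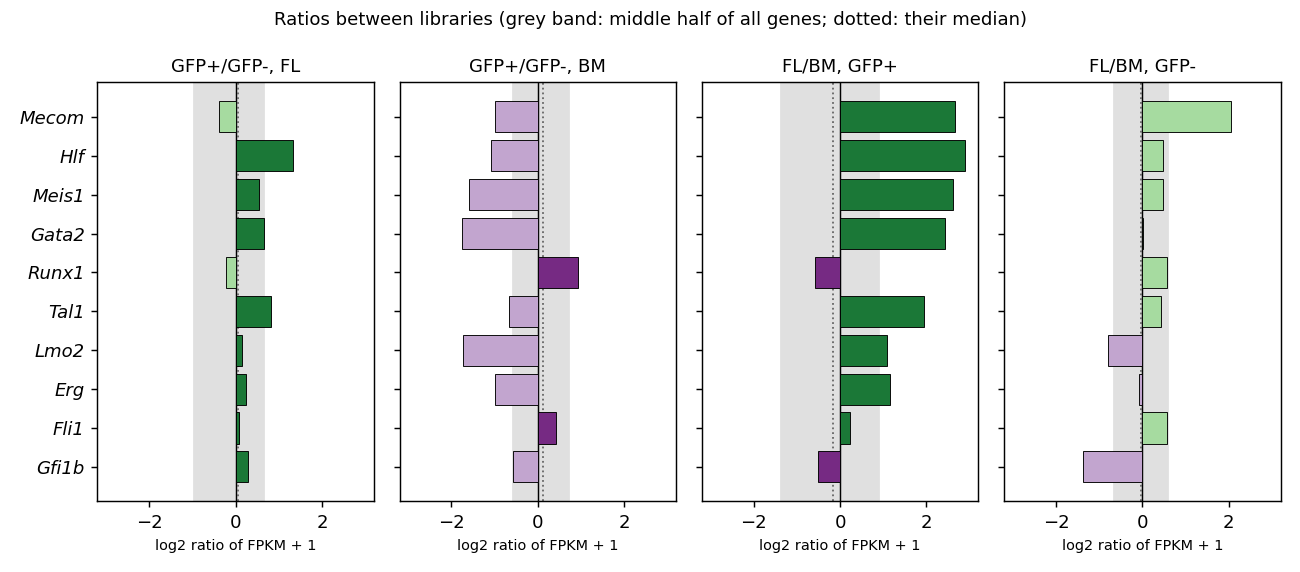
Log2 ratio of FPKM + 1 of each factor gene in the 4 comparisons (x axis, 1 library against 1), coloured by the library with the higher value. The grey band holds the middle 50% of genes that reached an FPKM of 1 and the dotted line marks their median; in BM GFP+/GFP- the bars of 8 genes point to GFP-, and in FL/BM among GFP+ cells 8 point to FL.

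The direction of the GFP+/GFP- difference was opposite in FL and BM for 8 of the 10 genes, whereas 45.6% of the 13609 genes that reached an FPKM of 1 in any library had opposite directions. The count depended on the scaling, at 6 of 10 (44.5% of all genes) with equal totals, where Lmo2 and Erg became lower in GFP+ cells of both tissues, 8 with equal upper quartiles, 0 (31.9%) with equal Kit and 2 (42.3%) with equal Cd34. Hlf was the 1 gene of the set past 2-fold in opposite directions, a pattern found in 11.9% of all those genes. Mecom was lower in GFP+ cells of both tissues, and Fli1 was higher in GFP+ cells of both. limma was used to fit a linear model with GFP and tissue as terms to 11707 genes, those reaching an FPKM of 1 in 2 or more libraries. It leaves 1 residual degree of freedom per gene and asks for a GFP effect shared by FL and BM. That residual is the difference between the GFP+/GFP- ratios of FL and BM and not a replicate error. The standard errors of both terms grow with this difference, so that a gene with opposite directions is hard to call for GFP. None of the 10 genes was called for GFP (0 at an adjusted p under 0.05 and 0 at an unadjusted p under 0.05), against 0.111% of all genes tested (13 genes). The GFP coefficients lay between −0.80 for Lmo2 (standard error 0.44, limma adjusted p = 0.913) and 0.34 for Runx1 (standard error 0.65, adjusted p = 0.990).

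Between the tissues, the GFP+ libraries differed most. Of the 10 genes, 7 had more than 2-fold higher FPKM in FL GFP+ than in BM GFP+ cells and 0 more than 2-fold lower. Over all detected genes these shares were 27.0% and 36.0%, and 25.1% of genes that reached an FPKM of 1 were more than 2-fold higher in FL. Hlf was 8.76-fold higher in FL GFP+ cells and Mecom 7.17-fold. Meis1 was 6.40-fold, Gata2 5.53-fold and Tal1 4.16-fold higher. Erg and Lmo2 were 2.38-fold and 2.15-fold higher. Fli1 was 1.17-fold higher, Runx1 was 1.52-fold lower and Gfi1b 1.44-fold lower, and scaling to equal totals turned the directions of Runx1 and Gfi1b. The median log2 ratio was 1.55 for the 10 genes and −0.15 for all 12120 genes. Kit and Cd34, genes of the sorted population, were themselves 4.62-fold and 4.57-fold higher in FL GFP+ than in BM GFP+ cells, and the part of the mature-cell genes of the BM GFP+ library was not tested.

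Among GFP- cells, the comparison that does not use the BM GFP+ library, 1 of the 10 genes was more than 2-fold higher in FL and 1 more than 2-fold higher in BM. Over all detected genes the shares were 21.9% and 29.2%, and over genes that reached an FPKM of 1 they were 19.3% and 18.6%. Mecom was 4.37-fold higher in FL GFP- cells, so that it was past 2-fold higher in FL in both reporter fractions. Gfi1b was 2.67-fold lower in FL GFP- cells, so that BM exceeded FL for this gene in both fractions. Of the other 6 genes past 2-fold among GFP+ cells, Hlf, Meis1 and Tal1 were 1.43-fold, 1.41-fold and 1.39-fold higher in FL GFP- cells, and Gata2 was nearly level, at 87.6 against 86.4. Erg was 1.05-fold and Lmo2 1.73-fold lower in FL GFP- cells, opposite to their direction among GFP+ cells. Runx1 and Fli1 were 1.53-fold and 1.49-fold higher in FL GFP- cells. Scaling to equal totals or to equal upper quartiles turned the direction of Erg. With equal totals, Gfi1b was no longer past 2-fold (log2 ratio −0.97), so that 0 genes were higher in BM, and 3 were higher in FL. The median log2 ratio of all genes also moved, from −0.03 to 0.30, and their share past 2-fold was not computed on that scale.

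In the limma model, 0 of the 10 genes were called for tissue at an adjusted p under 0.05, against 2.46% of all genes tested (288 genes), and 2 of the 10 had an unadjusted p under 0.05, against 17.2% of all genes. These were Mecom, 2.36 higher in FL on the log2 scale (standard error 0.57, adjusted p = 0.0753, and 0.0579 to 0.236 over the alternative settings), and Meis1, 1.55 higher (standard error 0.52, adjusted p = 0.178). For 6 of the 10 genes (Mecom, Hlf, Meis1, Gata2, Tal1 and Fli1) both FL values exceeded both BM values, as for 21.7% of all genes tested, and for 1, Gfi1b, both BM values were higher, as for 27.6%. Mecom had 45.1 and 59.0 in FL against 6.29 and 13.5 in BM. Gfi1b had 31.7 and 25.6 against 45.4 and 68.4, with a tissue difference of −0.94 (standard error 0.46, adjusted p = 0.344). With equal totals the Gfi1b ratio among GFP+ cells turned to 0.11 on the log2 scale. The standard errors of the 10 genes ran from 0.36 to 0.80, and the tissue differences of Erg and Lmo2, at 0.54 and 0.15, were smaller than their own standard errors of 0.69 and 0.44.

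Likeness was taken as the distance between mean-centred log2 profiles over the 4 libraries. Meis1 and Gata2 were the nearest pair (distance 0.36, Pearson's r = 0.985), and Tal1 was nearest to Hlf (distance 0.68, r = 0.998). Erg and Lmo2 were nearest to each other (r = 0.857), as were Runx1 and Fli1 (r = 0.552). Mecom was nearest to Meis1 (r = 0.898). Gfi1b had no close partner, its nearest being Lmo2 (r = 0.291). With 4 points that share tissues and fractions, these values are a description.

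Ratios between genes of the same library are not moved by how libraries are scaled. Kit, the receptor used in the sort, had 102, 150, 22.2 and 76.6 in FL GFP+, FL GFP-, BM GFP+ and BM GFP- cells, and was chosen for this comparison after its values were seen. Kit itself was thus 3.46-fold lower in BM GFP+ than in BM GFP- cells. Relative to Kit, Gata2 was at 1.13 in both BM libraries, Lmo2 at 5.54 and 5.38 in GFP+ and GFP- cells, and Meis1 at 0.969 and 0.876. Relative to Kit, 10 of the 10 genes were at least as high in BM GFP+ as in BM GFP- cells, by factors from 1.001 for Gata2 to 6.79 for Runx1. With the libraries scaled to equal Kit, the median log2 ratio in BM was 0.67 for the 10 genes and 1.70 for all genes, so that the typical gene was higher still on this scale. With Cd34, a surface protein of progenitors, in place of Kit, the factors ran from 1.09 to 7.38. The lower FPKM of Gata2, Lmo2 and Meis1 in BM GFP+ cells was therefore matched by Kit and Cd34 in the same library, and Runx1 and Fli1, at 6.79 and 4.67 times their BM GFP- ratios to Kit, were not. In FL, the ratio to Kit was higher in GFP+ than in GFP- cells for all 10 genes, by 3.83-fold for Hlf, 2.65-fold for Tal1, 2.32-fold for Gata2 and 1.12-fold for Mecom, with Kit itself 1.47-fold lower in GFP+ cells. With equal Kit, the FL median log2 ratio was 0.78 for the 10 genes and 0.40 for all genes. Relative to Cd34, Mecom and Runx1 were lower in FL GFP+ cells, at 0.779 and 0.86 of their FL GFP- ratios. Between the tissues, ratios to Kit among GFP+ cells were past 2-fold higher in FL for 0 of the 10 genes and past 2-fold higher in BM for 4. On this scale the median log2 ratio of FL to BM was −0.53 for the 10 genes and −2.02 for all genes, so that the typical gene was further towards BM. Among GFP- cells the ratio of Mecom to Kit was 2.23-fold higher in FL.

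**Figure D3:**
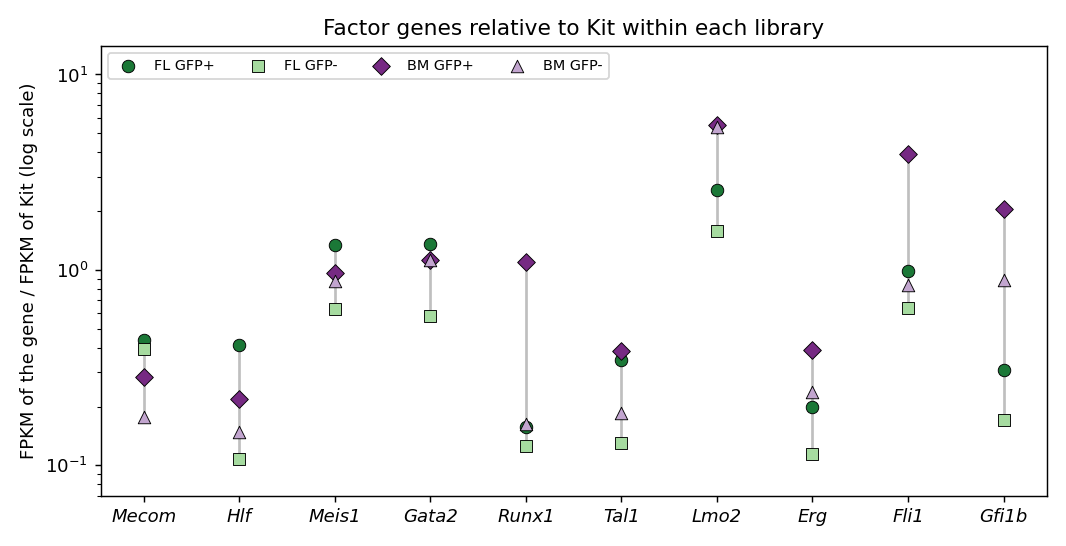
FPKM of each factor gene divided by the FPKM of Kit in the same library (log axis), 1 point per library. Meis1, Gata2 and Lmo2 are nearly level between BM GFP+ and BM GFP- cells, and Runx1 and Fli1 lie apart in BM GFP+ cells.

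Ratios to close relatives differed by library as well. Gata1, the erythroid and megakaryocytic GATA factor, had 36.5, 6.58, 41.0 and 49.3 in FL GFP+, FL GFP-, BM GFP+ and BM GFP- cells. The Gata2 to Gata1 ratio was therefore 3.79, 13.3, 0.611 and 1.75, and Gata1 exceeded Gata2 only in BM GFP+ cells. Gfi1, the myeloid and lymphoid relative of Gfi1b, had 0.147, 20.9, 7.66 and 5.28 in the same order. The Gfi1b to Gfi1 ratio was 215, 1.23, 5.93 and 12.9. Within the FL, Gata1 was 5.55-fold higher and Gfi1 142-fold lower in GFP+ cells, while Gata2 and Gfi1b themselves differed by less than 2-fold.

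Ets1, an ETS factor of lymphoid cells, had 0.0149, 4.14, 47.3 and 13.6 in that order, beside a Fli1 level of 64.1 to 102. T and NK cell genes also summed highest in BM GFP+ cells, at 580, against 361 in BM GFP- and 10.3 to 17.9 in FL cells, and their part in the Ets1 level was not tested. The Erg to Fli1 ratio was 0.201, 0.180, 0.0995 and 0.283 in FL GFP+, FL GFP-, BM GFP+ and BM GFP- cells. Prdm16, the relative of Mecom, was at 4.93, 4.89, 0.758 and 1.96, and the Mecom to Prdm16 ratio stayed between 6.89 and 12.1. Gfi1, Ets1 and Prdm16 were named after their values were seen.

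**Figure D4:**
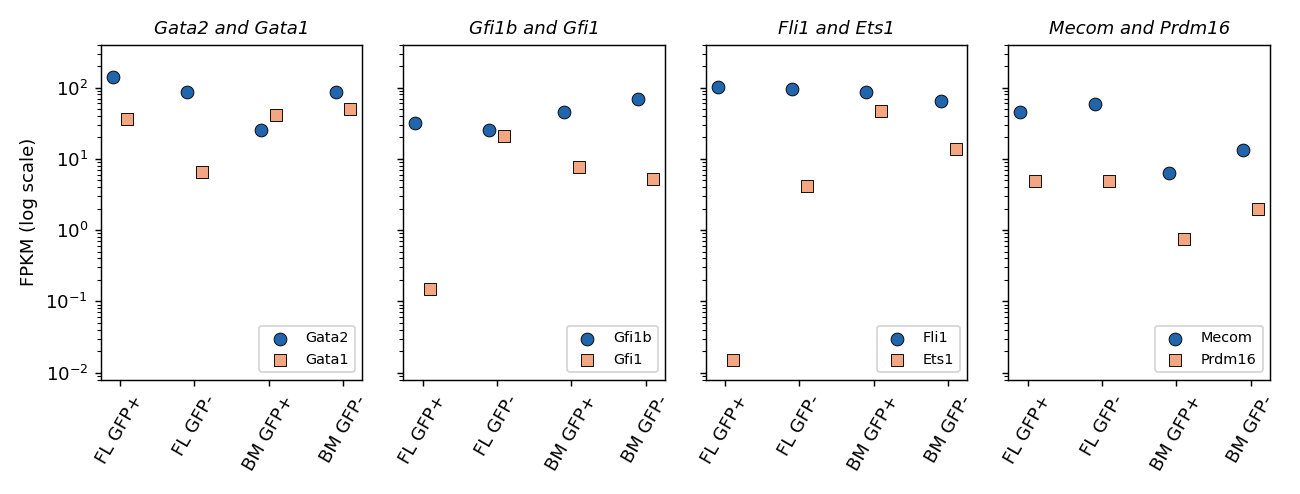
FPKM (log axis) of 4 factor genes (circles) and a close relative of each (squares) in the 4 libraries. Gata1 exceeds Gata2 in BM GFP+ cells alone, Gfi1 and Ets1 are near 0 in FL GFP+ cells, and Mecom and Prdm16 run in parallel.

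Of 21 genes for binding partners, 7 were more than 2-fold higher and 5 more than 2-fold lower in BM GFP+ than in BM GFP- cells, with a median log2 ratio of −0.02. The shares over all detected genes were 18.0% and 36.7%. In FL, 4 were higher and 4 lower, against 16.5% and 38.4% of all genes. None was called for GFP by limma (0 of 21 tested, and 0 at an unadjusted p under 0.05, against 0.111% and 6.25% of all genes). Hdac1, a histone deacetylase that joins repressor complexes, had the highest mean level, at 205, 160, 101 and 131 in FL GFP+, FL GFP-, BM GFP+ and BM GFP- cells. Lyl1, the relative of Tal1 that can stand in for it, had 130, 79.4, 94.9 and 129. Hdac2 had 57.0, 55.4, 23.1 and 46.5, and Tcf3, which encodes the E proteins that pair with TAL1, had 29.8, 36.6, 72.7 and 34.0.

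Kdm1a, the lysine demethylase that GFI1B recruits, was past 2-fold higher in GFP+ cells of both tissues, at 11.5 against 5.55 in FL and 5.46 against 2.49 in BM. Ssbp2, which stabilizes LDB1, was past 2-fold lower in GFP+ cells of both, at 10.4 against 23.2 and 6.42 against 14.3. Between the tissues, 9 of the 21 partners were more than 2-fold higher in FL GFP+ than in BM GFP+ cells and 4 lower, and 4 were higher and 0 lower among GFP- cells. Over all genes the shares were 27.0% and 36.0% among GFP+ and 21.9% and 29.2% among GFP- cells.

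Of 17 family relatives, 3 were past 2-fold higher and 3 lower in BM GFP+ cells, and 2 were higher and 6 lower in FL GFP+ cells, beside 18.0% and 36.7% of all genes in BM and 16.5% and 38.4% in FL, so that the 6 were near the background. Besides Gata1, the relatives with the highest mean level were the ETS repressor gene Etv6 and the LIM-only relatives Lmo4 and Lmo1. Etv6 was at 49.1, 27.4, 18.8 and 20.8 in FL GFP+, FL GFP-, BM GFP+ and BM GFP- cells. Lmo4 was at 13.6, 9.79, 34.1 and 24.2, and Lmo1 at 26.9, 16.8, 15.4 and 16.0. None was called by limma for GFP or tissue (0 of 15 tested, with 0 and 2 at an unadjusted p under 0.05). Of 16 other stem-cell factors, 1 was past 2-fold higher and 7 lower in BM GFP+ cells, and 1 was higher and 4 lower in FL GFP+ cells, beside the same shares of all genes. Of these, limma called 0 of 14 tested for GFP, with 2 at an unadjusted p under 0.05, and 1 for tissue. Spi1, the myeloid and lymphoid ETS factor PU.1, had 196, 155, 315 and 173, and Hhex, a homeobox factor, had 229, 195, 149 and 88.3. Mycn, a relative of Myc, had 292, 228, 16.4 and 69.4, and Nkx2-3 had 53.4, 77.8, 0 and 45.6. Hoxb5 and Tcf15, at or below an FPKM of 4.46, were listed at 0 in the GFP+ library of both tissues.

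Of 15 genes described as targets of these factors, 8 were more than 2-fold lower in BM GFP+ than in BM GFP- cells and 0 higher, against 36.7% and 18.0% of all genes, with a median log2 ratio of −1.25. Cd34 was 3.76-fold lower, with 48.4 against 182. Nfe2, a bZIP factor of megakaryocytes, was at 156 against 192. In FL, 2 of the 15 were higher and 1 lower, against 16.5% and 38.4% of all genes, and Cd34 had 221 against 226. Myct1 was the target past 2-fold in the same direction in both tissues, at 12.5 in FL GFP+ against 37.9 in FL GFP- and 11.9 against 36.9 in BM. None of the 15 was called for GFP by limma (0 genes, with 2 at an unadjusted p under 0.05), and 1 was called for tissue. In BM, the target list and the factor list thus had the same predominant direction, which the sum of the sorted stem-cell genes shared.

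**Figure D5:**
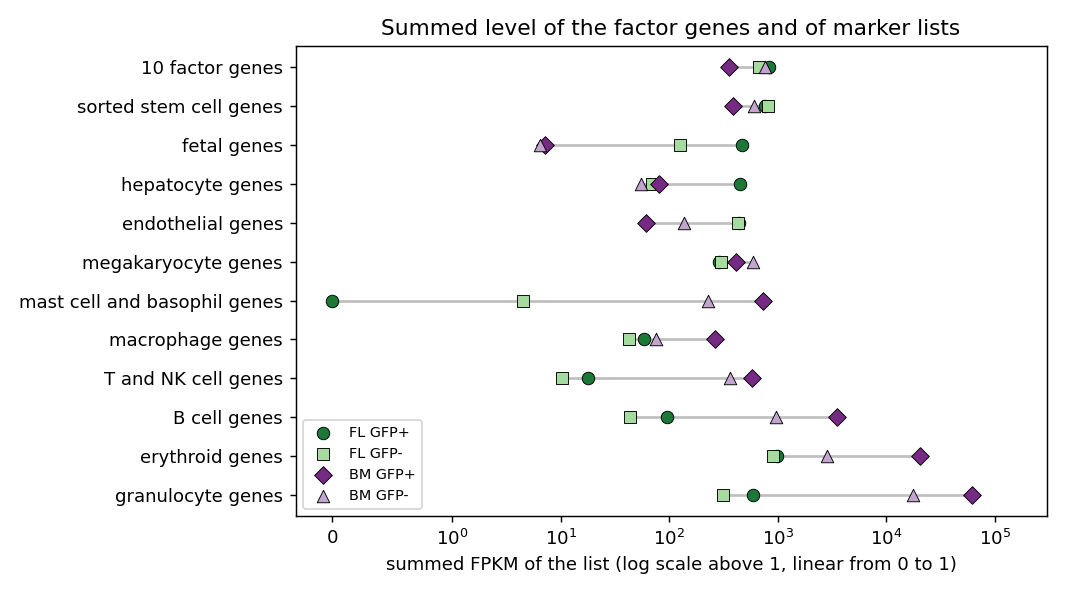
Summed FPKM (log axis above 1, linear from 0 to 1) of the 10 factor genes and of each marker list, with 1 point per library. In BM GFP+ cells the factor and stem-cell sums are lowest, at 354 and 386, while the granulocyte, erythroid and B cell sums are highest.

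In the GENCODE annotation of NCBI37/mm9, the build named in the methods, Mecom lies on chromosome 3 (29850221 to 30446930), Hlf on chromosome 11 (90197849 to 90252231) and Meis1 on chromosome 11 (18780433 to 18918961). Gata2 lies on chromosome 6 (88143885 to 88157024), Tal1 on chromosome 4 (114729031 to 114744360) and Fli1 on chromosome 9 (32229793 to 32348974). Lmo2 (103798143 to 103822035) and Gfi1b (28464970 to 28477502) are both on chromosome 2, and Runx1 (92601712 to 92826311) and Erg (95580776 to 95808200) both on chromosome 16. Exons of Mecom, Meis1 and Runx1 overlap those of Gm16722, Gm16140 and Gm16801 on the opposite strand. Whether strand was used in counting is not given in the sources used here, and reads of such pairs then cannot be told apart.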

How the data were processed

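RNA from 4 sorted LSK-SLAM fractions was sequenced by the authors on a HiSeq2000 from SMARTer libraries, which amplify cDNA from little RNA. The deposited values are FPKM, made by the authors with Bowtie, TopHat and Cufflinks 2.2.1, corrected with Cuffquant and scaled across libraries with Cuffnorm by its geometric method. The methods name build NCBI37/mm9 and the submitters' processing notes mm10, and the files hold symbols alone. Read counts and errors are not analysed here, so the precision of a single FPKM is unknown.

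Groups followed the deposited titles. The study's rule, more than 2 times the FPKM, was applied to the FPKM as deposited. Log2 ratios used FPKM + 1. GFP and tissue effects were fitted with limma 3.58.1 in R 4.3.3 (eBayes with trend, Benjamini-Hochberg adjustment over all genes tested, FPKM of at least 1 in at least 2 libraries), after a test on simulated data. The simulated GFP effects were the same in both tissues and larger than those fitted for the 10 genes. That test therefore does not show whether effects of their size can be called. Alternatives changed the pseudocount, the filter, the scaling across libraries, the variance trend and the model terms. Other steps used Python 3.11.15. The members and lists were chosen with earlier results of these data known. All 10 factors are named. Of the lists, the 4 genes with the highest mean FPKM were named (2 for markers), with those past 2-fold in the same direction in both tissues, and other names are marked as chosen later. Of the marker genes, Epb42, Ly6g and Adgre1 were not matched by symbol, and 1 gene that the naming rule would name is not reported here.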

Additional observations from a re-analysis of the deposited data

Results flagged for a closer look

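The GFP+/GFP- log2 ratio of FPKM + 1 had opposite signs in the FL and the BM for 8 of the 10 factor genes, which is what singled them out. The difference rests on 4 libraries, 1 per group, and was not tested. The BM ratio minus the FL ratio was −2.41 for Hlf, −2.40 for Gata2, −2.14 for Meis1, −1.89 for Lmo2, −1.49 for Tal1, −1.23 for Erg, −0.87 for Gfi1b and 1.15 for Runx1. Of all 13609 genes that reached an FPKM of 1 in any library, 45.6% had opposite signs. With equal FPKM totals 6 of the 10 factor genes had opposite signs, with equal Kit 0 and with equal Cd34 2.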

How the results depend on the processing

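Scaling to equal FPKM totals shifted the median log2 ratio of all genes by −0.14 in FL GFP+/GFP-, −0.31 in BM GFP+/GFP-, 0.26 in FL/BM among GFP+ and 0.34 among GFP- cells. The count of factor genes past 2-fold lower in BM GFP+ cells went from 6 to 4 with FPKM + 1 in the fold. With equal totals, those higher in FL among GFP- cells went from 1 to 3 and those higher in BM from 1 to 0. The upper quartile scaling and the filter on low FPKM moved none of these counts by over 1.5 times. Shares of all genes past 2-fold were not computed for the scaled values or for FPKM + 1 in the fold.

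Scaling every library to the same Kit or Cd34 FPKM was added after the data were seen and brings in the differences of those genes. With Kit, 4 genes were past 2-fold higher in FL GFP+ cells. With either, 0 were lower and 4 higher in BM GFP+ than in BM GFP- cells, 0 were higher in FL than in BM among GFP+ cells and 4 lower, and 3 (Kit) or 2 (Cd34) were lower in FL among GFP- cells. The median log2 ratio of all genes moved as well, to 0.40 with Kit in FL GFP+/GFP-, and to 1.70 (Kit) and 1.80 (Cd34) in BM GFP+/GFP-. It was −2.02 and −2.00 in FL/BM among GFP+ cells, and −0.82 and −0.28 among GFP- cells. The medians of all genes in BM GFP+/GFP- and in FL/BM among GFP+ cells were thus themselves past 2-fold. The share of all genes past 2-fold was not computed on these scales. The BM log2 ratio turned to 0.65 (Kit) and 0.76 (Cd34) for Mecom, 0.52 and 0.63 for Hlf, 0.14 and 0.26 for Meis1, 0.0017 and 0.12 for Gata2, 0.043 and 0.16 for Lmo2, 0.69 and 0.80 for Erg, 1.01 and 1.12 for Tal1, and 1.19 and 1.31 for Gfi1b. The FL/BM ratio among GFP+ cells turned to −0.15 and −0.13 for Tal1, −1.10 and −1.09 for Lmo2, −0.92 and −0.90 for Erg, and −1.96 and −1.95 for Fli1. Among GFP- cells, Hlf, Meis1, Gata2, Runx1, Tal1 and Fli1 turned with Kit, to between −0.94 and −0.33, and Gata2 with Cd34. Opposite GFP directions in FL and BM, found for 8 genes, were found for 0 with Kit and 2 with Cd34. The 2 were Runx1 and Mecom, and Mecom was not among the 8.

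In limma, 0 factor genes were called under all 7 settings for GFP and for tissue. All genes called for GFP went from 13 to 1 with a pseudocount of 0.1, 0 without the trend and 4 without tissue in the model, and those for tissue from 288 to 80, 0 and 176 (without GFP), and to 189 with no filter. The cause was not tested. The labels do not say whether the GFP+ and GFP- cells of a tissue came from the same animals. With 1 library per group, the model pairs GFP+ with GFP- only by tissue, through its tissue term. No library could be left out, since 3 libraries leave no residual degree of freedom. Depth limits the lowest values, and counting error could not be computed from FPKM.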

Other observations

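The endothelial marker list, some of whose genes HSCs also express, was mixed. Egfl7, a secreted vascular protein, had 219, 251, 29.8 and 81.6 FPKM in FL GFP+, FL GFP-, BM GFP+ and BM GFP- cells. Tie1, an endothelial receptor kinase, had 85.7, 81.3, 0.0370 and 29.2. The sum over the 9 genes of this list was 437, 434, 60.6 and 136, and 8 of the 9 were past 2-fold higher in FL GFP- than in BM GFP- cells, against 21.9% of all detected genes. In BM, 6 of the 9 were past 2-fold lower in GFP+ cells, against 36.7% of all genes, and 3 were higher, against 18.0%. These 3 were Plvap, at 26.1 against 2.34, Kdr, at 3.10 against 0.413, and Cdh5, the defining cadherin of endothelium, at 1.503 against 0.230. Pf4, a platelet chemokine, was listed at 0 in FL GFP+ cells and had 6.45, 245 and 315 in FL GFP-, BM GFP+ and BM GFP- cells. Plvap, Kdr and Cdh5 were chosen after their values were seen.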
